A study of Mus musculus with 6 samples.

Results

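Melanin is made in the melanosome, a lysosome-related organelle of pigment cells. The genes described here encode its 3 synthesis enzymes, Tyr, Tyrp1 and Dct, its fibril protein Pmel, the fibril protein's relative Gpnmb, and the melanosome membrane proteins Mlana and Gpr143. They were chosen by name, with earlier results of these data known, and all probe sets that the array annotation pairs with them were taken. These were 12 probe sets for 7 of the 18193 genes represented. Tyr and Tyrp1 had 3 probe sets each, Gpnmb had 2, and the other 4 genes had 1 each. Where a gene had several, the one with the highest mean on the log2 scale stands for the gene.

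Tyrosinase (Tyr) carries out the rate-limiting step, the oxidation of tyrosine, and dopachrome tautomerase (Dct) and tyrosinase-related protein 1 (Tyrp1) act on later intermediates of brown and black eumelanin. Pmel is cleaved into an amyloid-forming fragment whose fibrils line the early melanosome and receive the pigment. In melanocytes the transcription factor MITF, itself under the control of SOX10 and PAX3, is known to activate most of these genes through short DNA elements in their promoters.

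The arrays came from melan-a, an immortal line of pigmented melanocytes derived from C57BL/6 mouse embryos. All 6 cultures carried delta-BRAF-ER, an active form of the kinase BRAF fused to a receptor domain that responds to tamoxifen. One culture was profiled without BRAF activation (BRAF-off) and 1 with it (BRAF-on). The other 4 combined activated BRAF with ectopic ZEB2, SNAIL2, TWIST1 or ZEB1, transcription factors of the epithelial-mesenchymal transition. The design asks how each factor affects expression in cells with activated BRAF. There was 1 array per group, so no replicate error could be estimated, no test was run, and a difference is described by its size alone. No array with tamoxifen but without the construct was used here, so the drug and the kinase cannot be told apart.

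Values are deposited microarray signals on a linear scale. Signals under 63.7, the median of all values, were treated as not measured, and a gene was counted as higher or lower at a ratio of at least 2-fold. Between 10611 and 11269 genes reached this floor on each array. Of 12 probe sets for the genes of the 4 added factors, 9 reached the floor, and for none did the array labelled with its own factor show 2-fold more signal. Their folds over BRAF-on ran from 0.352 for Snai2 to 1.7 for Zeb2, so the labels of those 4 arrays are not borne out by these probe sets, which may not read a transgene. Each array is therefore called by its label below, and a phrase such as "with ZEB2" refers to the label only. Of 10 melanocyte markers, 7 of them among the genes described here or their transporters, all 10 reached the floor on 5 arrays. On the array labelled TWIST1 only Mitf and Sox10 did. The array labelled SNAIL2 stood apart in its poly-A spike-in controls, whose median signal was 2.55 times that of BRAF-on, against 0.88 to 1.42 times on the others; its part in the results was not tested.

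The RefSeq table (GRCm38.p6) held the 250 bases upstream of the start for Tyr, Tyrp1, Dct and Gpnmb. Those of Pmel, Mlana and Gpr143 were not analysed here. Any link of promoter sequence to the array signals was not tested. The windows were searched on both strands for TCATGTG, the core of the M-box, an element that MITF is known to bind. Tyr, Tyrp1 and Dct each held it, with the same 3 flanking letters, and their stretches are shown with the motif in capitals, 5′ to 3′ along the gene's strand.
Tyr (chr7:87493517-87493546, minus strand): agaaaaagttagTCATGTGctttgcagaag
Tyrp1 (chr4:80834154-80834183, plus strand): gtggggagggagTCATGTGctgcctagtag
Dct (chr14:118052380-118052409, minus strand): gtgcacttagggTCATGTGctaacaaagag
The motif began 22 bases before the start in Tyr, 47 in Tyrp1 and 151 in Dct. The Tyrp1 start of this table lies 90 bases after the gene's earliest annotated start, so its motif lies downstream of that earliest start. Dct held it a second time on the other strand, 232 bases before the start. TCATGTG occurred in 3.25% of all 32851 promoter windows of this length. The longer run GTCATGTGCT, which contains it, was in Tyr, Tyrp1 and Dct and in 0.155% of all windows. Adding 1 more base, AGTCATGTGCT was in Tyr and Tyrp1 and in 7 windows in all, 0.0213%. The last 2 runs were searched because they were seen in these promoters.

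The whole windows of Tyr, Dct and Gpnmb follow, to set a promoter with the motif beside one without it, and capitals again mark TCATGTG or its reverse complement CACATGA.
Tyr (chr7:87493513-87493762, minus strand): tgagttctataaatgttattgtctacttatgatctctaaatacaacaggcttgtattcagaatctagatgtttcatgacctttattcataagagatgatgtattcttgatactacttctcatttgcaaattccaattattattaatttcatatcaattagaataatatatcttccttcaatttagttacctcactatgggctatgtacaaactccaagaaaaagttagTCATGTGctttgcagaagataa
Dct (chr14:118052247-118052496, minus strand): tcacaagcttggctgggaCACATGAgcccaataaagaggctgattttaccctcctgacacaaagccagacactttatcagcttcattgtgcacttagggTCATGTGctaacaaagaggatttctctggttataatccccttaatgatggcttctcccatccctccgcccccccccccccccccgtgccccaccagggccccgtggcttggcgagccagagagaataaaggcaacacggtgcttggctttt
Gpnmb (chr6:49036268-49036517, plus strand): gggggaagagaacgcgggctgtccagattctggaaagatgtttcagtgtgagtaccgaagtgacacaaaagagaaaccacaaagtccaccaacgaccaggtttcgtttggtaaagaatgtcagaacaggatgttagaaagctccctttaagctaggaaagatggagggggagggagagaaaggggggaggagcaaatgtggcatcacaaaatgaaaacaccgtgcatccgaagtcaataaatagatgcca
The Gpnmb window did not hold TCATGTG, nor its 6-base part CATGTG, which was in 12.3% of all windows. CACCTG, an E-box that ZEB and SNAIL proteins are known to bind, was in none of the 4 windows and in 17.2% of all. CATATG, an E-box known for TWIST proteins, was also in none of the 4 and in 3.46% of all. These are letter matches in a short window and say nothing on binding in these cells.

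Across the 6 arrays the genes kept nearly 1 order of levels. All 12 probe sets were highest on the array labelled SNAIL2, second highest on that labelled ZEB2 and lowest on that labelled TWIST1. Of the 12040 genes that reached the floor on some array, 32.5% were highest on the array labelled SNAIL2, 14.6% had it and that labelled ZEB2 on top, and 20.5% were lowest on that labelled TWIST1. In 10 of the 12, those of all genes but Gpnmb, the full order from high to low was SNAIL2, ZEB2, BRAF-off, BRAF-on, ZEB1 and TWIST1. This full order was held by 6 of the 7 genes and by 2.93% of those 12040 genes. With 1 array a group, neighbours in the order cannot be told apart beyond their spread. In these RNA extracts fewer expressing cells and less RNA per cell cannot be told apart.

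The synthesis enzymes had high signals on every array but that labelled TWIST1. The Tyr signal was 5366 in BRAF-off, 2583 in BRAF-on, 7467 with ZEB2, 9714 with SNAIL2, 28.7 with TWIST1 and 922 with ZEB1. Its array labelled TWIST1 was under the floor, and the other 5 spanned a wide range. The further Tyr probe sets kept that order, at 437, 251, 676, 901, 20.0 and 109 for the one and 799, 371, 1238, 1649, 0.649 and 90.2 for the other. Tyrp1 gave 22671 in BRAF-off, 17439 in BRAF-on, 25678 with ZEB2, 29340 with SNAIL2, 13.1 with TWIST1 and 6000 with ZEB1. Its 4 highest arrays lay close together on a log scale, with the array labelled ZEB1 clearly under them. Dct gave 23974, 20660, 29621, 33845, 4.54 and 9319 in the same order of arrays. It had the same array order, and again the array labelled TWIST1 was far under the other 5.

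Pmel, the fibril protein, had signals of 13090 in BRAF-off, 9740 in BRAF-on, 19313 with ZEB2, 24591 with SNAIL2, 57.0 with TWIST1 and 4077 with ZEB1. The value on the array labelled TWIST1 was just under the floor. Gpnmb, a membrane glycoprotein related to Pmel and also found in lysosomes of other cell types, gave 11621, 9524, 16480, 23639, 2527 and 10585. It was the only one of the 7 genes to reach the floor on all 6 arrays, and its array labelled ZEB1 lay between BRAF-off and BRAF-on. Its other probe set gave 559, 509, 834, 1264, 204 and 530, in the same order of arrays.

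Mlana, a small membrane protein that binds Pmel and takes part in its maturation, gave 11194 in BRAF-off, 6270 in BRAF-on, 12368 with ZEB2, 13282 with SNAIL2, 42.1 with TWIST1 and 1533 with ZEB1. Gpr143, a receptor of the melanosome membrane that is mutated in ocular albinism, gave 968, 487, 1410, 2643, 40.4 and 261. Both were under the floor on the array labelled TWIST1 alone.

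**Figure D1:**
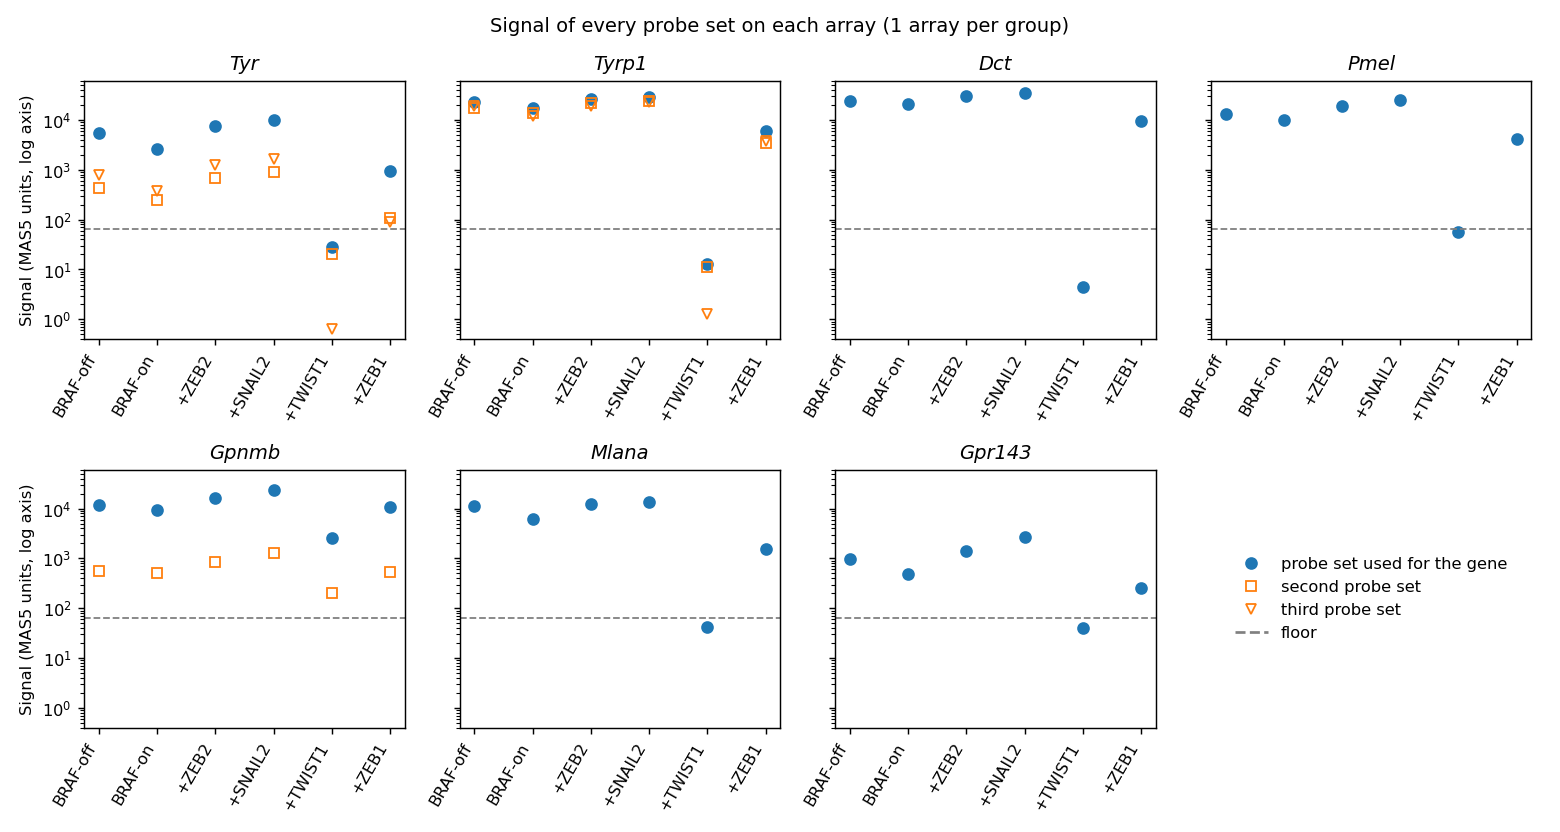
Signal of each of the 12 probe sets (log scale) on the 6 arrays, 1 point per array, with the floor of 63.7 drawn as a line. The 10 probe sets of the genes other than Gpnmb lie under the floor on the array labelled TWIST1 and over it on the other 5, and both Gpnmb probe sets stay over it throughout.

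With BRAF activated, all 7 genes had lower signals than in BRAF-off, but most by little. Tyr was 2.08-fold lower (log2 ratio -1.05), Gpr143 1.99-fold and Mlana 1.79-fold. Pmel was 1.34-fold lower, Tyrp1 1.30-fold, Gpnmb 1.22-fold and Dct 1.16-fold. Only Tyr passed the 2-fold mark, 1 of 7 genes, where 0.384% of the 11200 genes compared were 2-fold lower and 1.04% higher. Counted from the lowest ratio, Tyr stood at place 30, Gpr143 at 47 and Mlana at 92. The median log2 ratio was -0.43 over the 7 genes and near 0 over all genes. The other probe sets gave -0.80 and -1.10 for Tyr, -0.36 and -0.61 for Tyrp1 and -0.13 for Gpnmb.

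On the array labelled ZEB2, all 7 genes were higher than in BRAF-on, led by Tyr and Gpr143. Both were 2.89-fold higher (log2 ratio 1.53), and Pmel (1.98-fold) and Mlana (1.97-fold) came just under the 2-fold mark. Gpnmb was 1.73-fold higher, Tyrp1 1.47-fold and Dct 1.43-fold. Thus 2 of 7 genes passed, where 1.76% of 11322 genes were 2-fold higher and 0.583% lower, and the median log2 ratio was 0.98. Set against BRAF-off instead, the 7 genes were again all higher, with a median of 0.48 and a range from 0.14 for Mlana to 0.56 for Pmel, and none reached 2-fold, as 1.02% of all genes did upwards and 0.325% downwards.

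For the array labelled SNAIL2, the same direction was seen with larger ratios for each of the 7 genes. Gpr143 was 5.42-fold higher than in BRAF-on (log2 ratio 2.44), Tyr 3.76-fold, Pmel 2.52-fold, Gpnmb 2.48-fold and Mlana 2.12-fold. Tyrp1 (1.68-fold) and Dct (1.64-fold) stayed under the mark. So 5 of 7 genes passed, where 5.61% of 11416 genes were 2-fold higher and 6.42% were 2-fold lower. Against BRAF-off, Gpr143 was 2.73-fold and Gpnmb 2.03-fold higher, 2 of 7 genes where 4.0% of all were higher and 5.31% lower, and the median log2 ratio was 0.86. After centring, Gpnmb's log2 ratio was 0.99 and the count was 1. The further Tyr probe sets were 2.06-fold and 2.07-fold higher, against 1.81-fold for the one used. Dct's 33845 on this array was close to the array's highest signal of 36148; whether scanner saturation held down the ratios of Dct and Tyrp1 was not tested.

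On the array labelled TWIST1, all 7 genes were lower than in BRAF-on, and 6 of them were under the floor. Dct was at least 324-fold lower, Tyrp1 at least 274-fold and Pmel at least 153-fold. Mlana was at least 98.4-fold lower, Tyr at least 40.5-fold and Gpr143 at least 7.65-fold. These 6 are bounds, because the array labelled TWIST1 was under the floor, and a bound is set by the BRAF-on signal: Gpr143's smaller one starts from 487. The further Tyrp1 probe sets were at least 214-fold and 191-fold lower, and those of Tyr at least 3.93-fold and 5.83-fold. Gpnmb was measured on both arrays and was 3.77-fold lower (log2 ratio -1.91), with 2.49-fold in its other probe set. All 7 genes were thus 2-fold lower, where 2.02% of 11334 genes were, and 2.03% were 2-fold higher. Against BRAF-off the bounds ran from at least 15.2-fold for Gpr143 to at least 376-fold for Dct, and Gpnmb was 4.60-fold lower; 2.61% of all genes were 2-fold lower there and 3.11% higher.

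On the array labelled ZEB1, the enzymes and Pmel were also lower than in BRAF-on, but all 7 genes remained measurable. Mlana was 4.09-fold lower (log2 ratio -2.03), Tyrp1 2.91-fold, Tyr 2.80-fold, Pmel 2.39-fold and Dct 2.22-fold. The further Tyr probe sets were 2.3-fold and 4.12-fold lower, and those of Tyrp1 3.98-fold and 3.26-fold, so the order of these genes depends on the probe set. Gpr143 was 1.87-fold lower, under the mark. Gpnmb went the other way at 1.11-fold higher (log2 ratio 0.15), and 0.06 in its other probe set. So 5 of 7 genes were 2-fold lower, where 3.93% of 11614 genes were, and 4.49% were 2-fold higher. Against BRAF-off, 6 genes were 2-fold lower, from 2.57-fold for Dct to 7.30-fold for Mlana, and Gpnmb had a log2 ratio of -0.13; 5.2% of all genes were 2-fold lower there and 7.06% higher. The comparisons share the BRAF-on or the BRAF-off array, so the counts are not independent of each other.

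**Figure D2:**
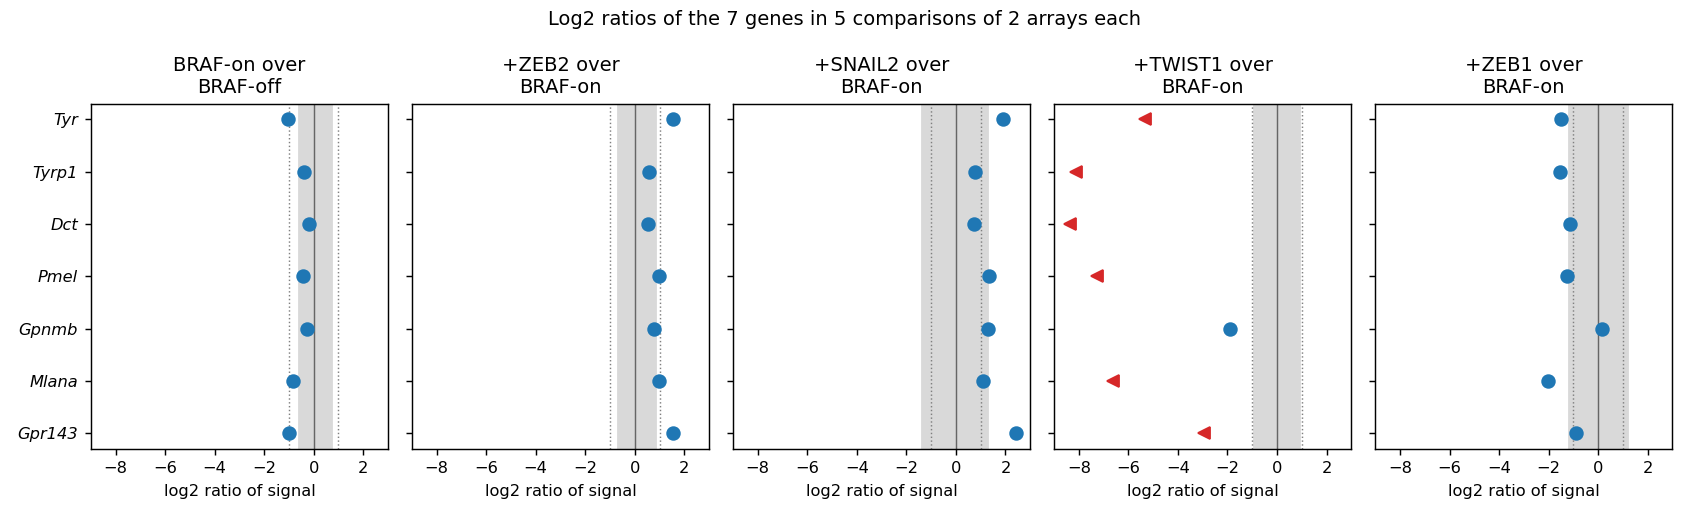
Log2 ratio of each gene in the 5 comparisons with a single step, BRAF-on over BRAF-off and each factor over BRAF-on, with bounds as red triangles. Dotted lines mark 2-fold, and grey bands span the middle 95% of all genes. All 7 genes sit above 0 with ZEB2 and SNAIL2 and below 0 with TWIST1, and Gpnmb alone sits above 0 with ZEB1.

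The regulators of the genes were read from a list of 14, of which 13 were measured. Against BRAF-on, 5 of 13 were 2-fold higher with ZEB2, 8 with SNAIL2 and none with TWIST1 or ZEB1; 5 were 2-fold lower with TWIST1 and 5 with ZEB1. Of all genes, 1.76% were higher with ZEB2, 5.61% higher with SNAIL2, 2.02% lower with TWIST1 and 3.93% lower with ZEB1. Mitf, the main activator of pigment genes, gave 7191 in BRAF-off, 5036 in BRAF-on, 11060 with ZEB2, 14255 with SNAIL2, 245 with TWIST1 and 1410 with ZEB1. That is the array order of the enzymes, and unlike them Mitf stayed over the floor with TWIST1, 20.6-fold under BRAF-on, and was 3.57-fold lower with ZEB1. Sox10, which drives Mitf in this lineage, gave 3777, 2730, 5182, 7757, 1941 and 2375. It was 1.41-fold lower with TWIST1 and 1.15-fold lower with ZEB1, both within the 2-fold mark. Pax3, another activator of Mitf, ran from 2514 to 3746 over the 6 arrays, with log2 ratios of 0.02 with TWIST1 and -0.02 with ZEB1.

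Tfec, a close relative of Mitf, gave 336, 162, 289, 648, 1.16 and 30.6, so it was under the floor on the arrays labelled TWIST1 and ZEB1, at least 2.55-fold lower on each. Kit, the receptor for stem cell factor, was 2.23-fold higher with ZEB2, 3.68-fold higher with SNAIL2, at least 11.8-fold lower with TWIST1 and 4.87-fold lower with ZEB1. Mc1r, the melanocortin receptor that raises eumelanin synthesis, was 2.29-fold and 3.75-fold higher with ZEB2 and SNAIL2, at least 24.3-fold lower with TWIST1 and 3.39-fold lower with ZEB1. With BRAF alone, 1 of 13 regulators, Tfec, was 2-fold lower (2.07-fold), where 0.384% of all genes were.

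**Figure D3:**
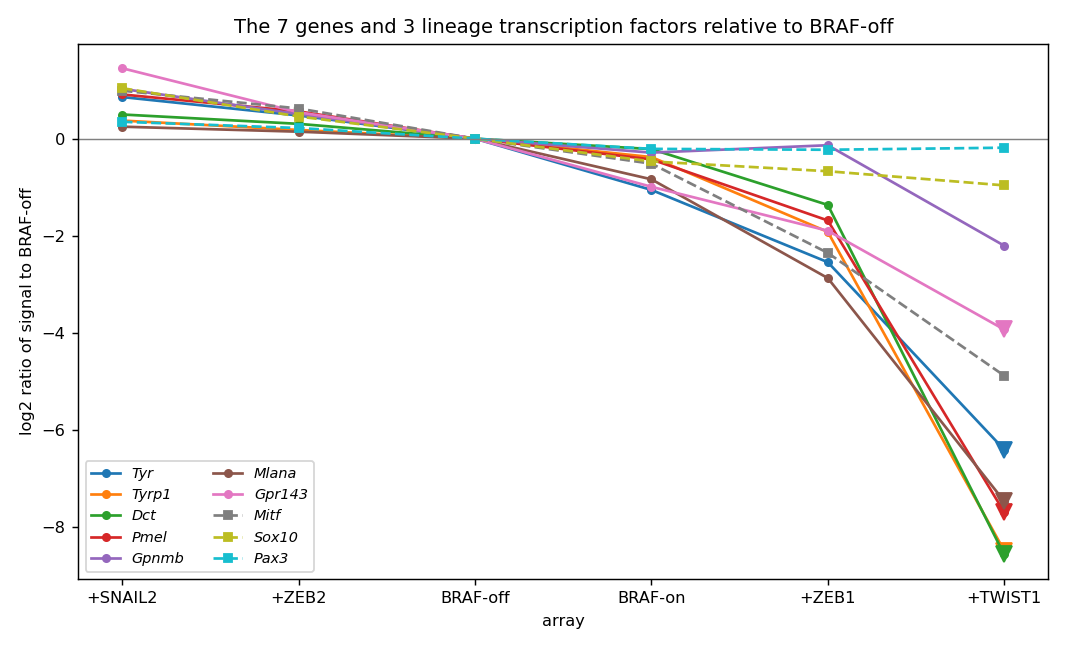
Log2 ratio of signal to BRAF-off on the 6 arrays for the 7 genes (solid lines) and for Mitf, Sox10 and Pax3 (dashed lines), 1 point per array; lines only join the points of a gene, and triangles are bounds. On the array labelled TWIST1 the points run from -8.56 for Dct through Mitf at -4.88 and Gpnmb at -2.20 to Pax3 at -0.19, and of the 10 genes Pax3 has the narrowest range over the arrays.

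Pmel's partners were read from a list of 9, of which 7 had a probe set and were measured. Bace2, the protease known to cleave Pmel before fibrils form, gave 1286 in BRAF-off, 913 in BRAF-on, 2034 with ZEB2, 3859 with SNAIL2, 40.0 with TWIST1 and 260 with ZEB1. It followed the array order of Pmel and was 4.23-fold higher with SNAIL2, at least 14.3-fold lower with TWIST1 and 3.52-fold lower with ZEB1. Apoe, a lipoprotein on which Pmel fibrils are known to form, went the opposite way on 2 arrays. Its signals were 707, 368, 474, 457, 1514 and 3498, so it was 4.11-fold higher with TWIST1 and 9.50-fold higher with ZEB1 than in BRAF-on. Psen2, a gamma-secretase subunit, was 2.46-fold and 4.03-fold higher with ZEB2 and SNAIL2 and 2.63-fold lower with TWIST1. The other 4, Furin, Adam10, Adam17 and Ncstn, stayed within 2-fold of BRAF-on throughout. Against BRAF-on, 2 of 7 were 2-fold higher with ZEB2, 2 with SNAIL2, 1 with TWIST1 and 1 with ZEB1. The shares of all genes were 1.76%, 5.61%, 2.03% and 4.49% in the same order. With TWIST1 2 of 7 were 2-fold lower and with ZEB1 1, where 2.02% and 3.93% of all genes were. Little can be read from 1 or 2 genes beside such shares.

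Melanosome transporters and channels were measured for 8 or 9 of 10 listed genes, depending on the comparison. Against BRAF-on, 4 of 9 were 2-fold higher with ZEB2 and 4 of 8 with SNAIL2, and 3 of 8 were 2-fold lower with TWIST1 and 3 of 8 with ZEB1. The shares of all genes were 1.76%, 5.61%, 2.02% and 3.93% in the same order. Those 3 were Oca2, Slc45a2 and Trpm1. Slc45a2, a transporter needed for tyrosinase to work in the melanosome, gave 3900, 2128, 6135, 8144, 19.1 and 728, and was at least 33.4-fold lower with TWIST1 and 2.92-fold lower with ZEB1. Oca2, a melanosomal channel gene, was 6.30-fold higher with SNAIL2 and at least 10.2-fold lower with TWIST1. Trpm1, a cation channel gene of melanocytes, was at least 28.0-fold lower with TWIST1 and 5.01-fold lower with ZEB1. Slc7a11, a cystine carrier, was 2.91-fold higher with TWIST1.

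Among genes of melanosome assembly and transport, 24 of 26 listed genes had a probe set and 23 or 24 were measured. Against BRAF-on, 5 of 24 were 2-fold higher with ZEB2, 10 of 24 higher and 1 lower with SNAIL2, 6 of 23 lower with TWIST1 and 2 of 24 lower with ZEB1. Of all genes, 1.76% were higher with ZEB2, 5.61% higher and 6.42% lower with SNAIL2, 2.02% lower with TWIST1 and 3.93% lower with ZEB1; little can be read from 1 or 2 genes beside such shares. The list's median log2 ratio with TWIST1 was -0.16, and that of the 7 genes above was a bound of -6.62 set by the floor. Mreg, which acts in melanosome transport, was at least 12.4-fold lower with TWIST1 and 5.35-fold lower with ZEB1. Mlph, the linker of melanosomes to the motor myosin Va, was 4.99-fold higher with SNAIL2 and 5.64-fold lower with TWIST1. Rab38, a small GTPase that helps deliver Tyr and Tyrp1 to melanosomes, was 3.67-fold higher with SNAIL2 and 6.02-fold lower with TWIST1.

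The general machinery that the enzymes share with other glycoproteins was read from a list of 9. None of these 9 chaperones and glucosidases of the endoplasmic reticulum was 2-fold apart in any comparison. Against BRAF-on, Calr was 1.77-fold higher with SNAIL2, more than Dct or Tyrp1, and Pdia3 was 1.52-fold lower with TWIST1. The list's median log2 ratios ran from -0.12 to 0.29 over the 9 comparisons. Between 0.325% and 7.06% of all genes were 2-fold apart in a given direction, so little can be read from none of 9. Of 19 measured lysosome genes, 1 was 2-fold higher than in BRAF-on with ZEB2 (Sgsh) and 3 with SNAIL2 (Sgsh, Npc1 and Ctsd). None was 2-fold lower with any factor. The shares of all genes were 1.76% higher with ZEB2, 5.61% higher with SNAIL2 and 0.583% to 6.42% lower with a factor. Little can be read from such small counts beside these shares. On the array labelled ZEB1, 18 of the 19 lysosome genes had ratios above 0, with a median log2 ratio of 0.54 against 0.07 over all genes. Above 0 were also 16 with ZEB2 (median 0.23), 16 with SNAIL2 (0.42 against 0.06) and 7 with TWIST1 (-0.05). Any link of these genes to the Gpnmb signal was not tested.

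**Figure D4:**
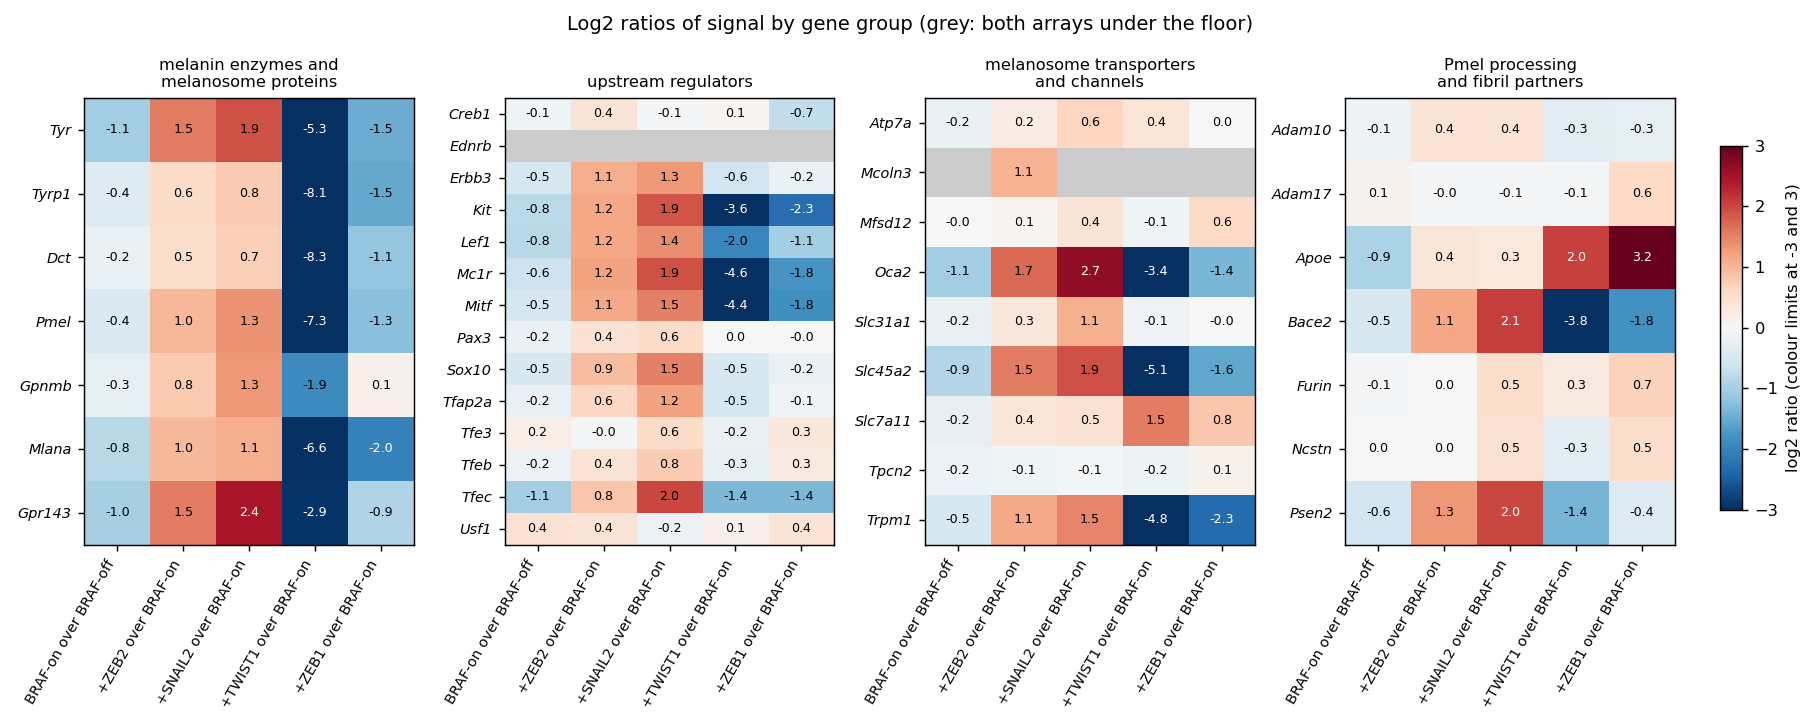
Log2 ratios of the 7 genes, the regulators, the transporters and channels and the Pmel partners, 1 row per gene, in BRAF-on over BRAF-off and in each factor over BRAF-on. Colours stop at -3 and 3, ratios with a value under the floor are bounds, and grey means that both arrays were under it. With TWIST1 all 7 genes, 5 regulators and 3 transporters are 2-fold lower, and Apoe is 2-fold higher with TWIST1 and ZEB1.

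Likeness was measured as the root mean square difference between 2 genes' log2 signals over the 6 arrays, each centred on its own mean. Tyrp1 and Dct were each other's nearest of 9325 genes compared, at 0.20. Pmel was nearest to Tyrp1 (0.29) and Mlana to Tyr (0.41). Outside the 7 genes, Tyr was nearest to Slc45a2 (0.14), Mc1r (0.39) and the lipase gene Mgll (0.40). Slc45a2 was also among the 3 nearest of Tyrp1, Dct, Pmel and Mlana. Tmsb4x, which encodes an actin-binding peptide, was nearest to Tyrp1 (0.71), Dct (0.78) and Pmel (0.72). It was 17.3 on the array labelled TWIST1 and 7952 in BRAF-on, but unlike them it was below BRAF-on with SNAIL2, at 5443. Gpr143 had as neighbours Rragd (0.19), a GTPase gene of lysosomal nutrient signalling, Mlph (0.20) and the nuclear receptor gene Nr4a3 (0.23). Gpnmb's neighbours were others, Cyfip2 (0.19), Lgi4 (0.20) and Nrcam (0.20), and its distance to the other 6 genes ran from 0.86 for Gpr143 to 2.27 for Dct. For all of the 7 genes but Gpnmb the value on the array labelled TWIST1 was raised to the floor before the distance was taken. Their distances, and which genes are near them, therefore depend on how high each signal is over the floor, and likeness under it was not measured.

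Markers of other cell types were read beside the genes. The summed signal of 10 fibroblast markers was 17520 on the array labelled TWIST1 and 7123 to 9221 on the others, and 9 of the 10 reached the floor there against 6 to 8. Fap was 7.22-fold, Postn 5.81-fold, Dcn 3.78-fold and Col3a1 2.95-fold higher than in BRAF-on, while Fbln1 and Col1a2 had log2 ratios of -0.24 and -0.14 and Lum was under the floor on all 6 arrays. In all, 4 of 9 measured fibroblast markers were 2-fold higher with TWIST1, where 2.03% of all genes were, and 7 had a ratio above 0. With ZEB1 2 of 8 were 2-fold higher, where 4.49% of all genes were, and 7 had a ratio above 0. Those 2 were Fap at 3.58-fold and Pdgfra at no less than 2.14-fold. None was 2-fold higher with ZEB2 or SNAIL2, and 1 was 2-fold lower with SNAIL2, where 6.42% of all genes were. The part of these genes in the low values of Tyr, Tyrp1, Dct and Pmel was not tested. Macrophage markers summed to 1454 on the array labelled ZEB1 and to 748.4 to 921.6 on the others, with 3 to 5 of 10 over the floor. With ZEB1 over BRAF-on, all 5 measured markers had ratios above 0, with a median log2 ratio of 0.64 against 0.07 over all genes. Cd68 was 3.65-fold higher, the only 1 of the 5 past 2-fold, where 4.49% of all genes were. Log2 ratios were 0.75 for Lyz2, 0.64 for Laptm5 (a bound), 0.59 for Fcer1g and 0.42 for Csf1r. With SNAIL2 over BRAF-on, Cd68 was 2.02-fold higher, the only 1 of 5 measured past 2-fold, where 5.61% of all genes were. There 3 of the 5 had ratios below 0, and the median log2 ratio was -0.13. Adgre1, Cd14, Ptprc, Tyrobp and Itgam were under the floor on all 6 arrays. The part of these markers in the Gpnmb signal of 10585 with ZEB1 was not tested. Keratinocyte markers reached the floor for 1 or 2 of 7 genes and summed to 312.3 to 546.1, with Krt14, Krt1, Trp63, Sfn and Perp under it throughout. Retinal pigment epithelium markers, from the other tissue known for these enzymes, reached it for 1 or 2 of 7 and summed to 174.6 to 298.6. Rpe65, Otx2, Best1, Ttr and Crx were under it throughout. Lrat was at least 2.52-fold higher with SNAIL2 than in BRAF-on, 1 of 2 measured there, where 5.61% of all genes were 2-fold higher. Schwann and glial markers reached the floor for 5 or 6 of 6 and summed to 1698 in BRAF-on and 3848 with ZEB1, the lowest and the highest array. Against BRAF-on, S100b was 3.11-fold higher with ZEB2 and 2.68-fold with SNAIL2, Pmp22 5.64-fold with TWIST1 and Cnp 3.51-fold with ZEB1. Each was the only 1 of the 5 or 6 measured to pass 2-fold there. The shares of all genes 2-fold higher were 1.76%, 5.61%, 2.03% and 4.49% in the same order.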

How the data were processed

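Total RNA of 6 melan-a cultures was amplified with a 3' IVT kit and hybridised to Affymetrix mouse arrays, as the labels' protocols state. The deposited signal intensities are linear and were computed by MAS5 (Expression Console 1.1) per the submitters' processing notes, and each array's mean without its top and bottom 2% was 500. Of 45101 probe sets, 64 were controls, and the 34945 others with 1 gene symbol were used. The log2 of the signal was taken after raising values under the floor of 63.7, the median of all values, to it. A ratio with 1 value under the floor is a bound. A gene entered a comparison where 1 of its arrays reached the floor. No test was possible with 1 array per group. Arrays limit the precision by their number.

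The genes, lists and comparisons were chosen with earlier results of these data known. Named were all 7 genes with every probe set and the 3 nearest genes outside them in likeness. From each list came up to 4 genes 2-fold from BRAF-on, not always the largest. Mitf, Sox10, Pax3, Tfec, Apoe and Bace2 were named whatever their values. The nearest genes had to reach 4 times the floor on 1 array. Of the listed genes, 9 of 139 had no usable probe set and were not analysed here. Scripts were tested on simulated data and used Python 3.11.15, numpy 2.4.6 and pandas 2.3.3. Alternatives changed the floor, scale, centring, probe set rule and fold.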

Additional observations from a re-analysis of the deposited data

How the results depend on the processing

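With 1 array per group, stability could be read only across processing choices. Of 243 counts and medians recomputed under the alternatives, 229 were scored as the same, 14 as moved and none as reversed. A small change in a count could be scored as the same. Genes 2-fold higher with ZEB2 than in BRAF-on were 3 after quantile normalization (1.79% of all genes). Those 2-fold lower with TWIST1 than in BRAF-on were 6 with the floor at the 75th percentile (0.656%). Of 567 ratios of single genes, 548 kept their side of 2-fold, 16 fell short of it, 3 passed it and none reversed. With 3-fold in place of 2-fold, the genes counted as lower in BRAF-on were 0, where 0.0446% of all genes were. Against BRAF-on, 0 were 3-fold higher with ZEB2 (0.221% of all genes) and 2 with SNAIL2 (1.36%). Counted as 3-fold lower with ZEB1 than in BRAF-on was 1 (0.732%). Against BRAF-off, 0 were 3-fold higher with SNAIL2 (0.457%). Without probe sets that may read several transcripts, 0 were 2-fold lower in BRAF-on, where 0.412% of all genes were. After centring, 1 was 2-fold higher with SNAIL2 than in BRAF-off, where 3.65% of all genes were. The median log2 ratio with TWIST1 over BRAF-on, a bound set by the floor, was -5.56 with the floor at the 60th percentile (133), -3.72 at the 75th (476), -7.22 with no floor and -5.90 with a pseudocount. Over BRAF-off it was -6.40, -4.55 and -6.73 for the first, the second and the last of these. At the 75th percentile Gpr143's ratio with TWIST1 over BRAF-on was -0.03, as its BRAF-on signal of 487 then lay just over the floor. No paired analysis was possible because each group had 1 array. Signal over background limits the TWIST1 values of the 6 genes under the floor there.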
